A study of Saccharomyces cerevisiae with 6 samples.

Results

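The enzymes that turn squalene into zymosterol, the middle stretch of the ergosterol pathway of Saccharomyces cerevisiae, were followed through 10 genes. The rule that picks the 10 goes by gene symbol and uses no measured value, but the set was drawn up with earlier results of these data known: ERG9, ERG1, ERG7, ERG11, ERG24, ERG25, ERG26, ERG27, ERG28 and NCP1. All 10 were among the 979 yeast genes on the array, each read by 1 probe printed in 2 or 3 spots, so that they took up 22 of 2154 yeast spots. The study set 3 single-colour arrays of a wild type strain beside 3 of the same wild type with ACC1 overexpressed. The product of ACC1, acetyl-CoA carboxylase, makes malonyl-CoA for fatty acid synthesis. The sources used here do not give the promoter or plasmid behind the overexpression, the strain background, the medium or the number of clones or cultures. The spread behind each p-value is therefore that between these samples and may be technical.

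Ergosterol is the main sterol of yeast membranes, and the steps from squalene onward take place at the endoplasmic reticulum and lipid droplets. Squalene is made from farnesyl units, oxidized, closed into the ring system of lanosterol, and then stripped of its extra methyl groups on the way to zymosterol. Several of these steps use oxygen and heme or another iron centre. Sterol demand raises many of these genes through the activators Upc2 and Ecm22, while Rox1 and Mot3 act as repressors of hypoxic genes, some sterol genes included.

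The probes that the results below turn on are shown as the scanner tables list them, in lower case with nothing marked. They are those of ERG11, the gene that changed, of its electron donor NCP1, of ERG28, the next largest difference, of ERG25, whose spots disagreed on 1 array, and of ERG26, the dimmest.
ERG11: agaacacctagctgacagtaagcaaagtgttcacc
NCP1: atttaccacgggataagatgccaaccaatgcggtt
ERG28: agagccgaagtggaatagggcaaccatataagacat
ERG25: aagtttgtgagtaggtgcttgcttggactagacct
ERG26: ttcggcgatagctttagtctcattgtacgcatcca
All are 35 bases long except that of ERG28, with 36. Each probe's name carries a pair of numbers whose span equals the probe's length. Taken as positions in the coding sequence, they place the ERG11 probe at 1414 to 1448 and the NCP1 probe at 1965 to 1999, which is 145 and 77 bases before the end of the gene by its R64 length. The ERG28 probe lay at 289 to 324, 123 bases from the end. The ERG25 probe lay near the start of the gene, at 33 to 67, and 863 bases from its end, and the ERG26 probe at 443 to 477, 573 bases from the end. Over all 979 probes the median distance to the gene's end was 417 bases. Labelling started from an oligo(dT) primer at the 3′ end of each transcript, per the labels. The reverse complement of a probe, read in the frame its numbers give, held a stop codon in 0% of the 979 probes. The sequence as listed held one in 45.0%. The listed sequences are therefore antisense to the coding strand, and the kit in the labels makes antisense RNA as well. The sources used here do not say how the listed strand relates to the strand on the slide. The longest run that the ERG11 probe shared with another probe on the array was 11 bases, and the longest for any of the 10 was 12.

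The arrays differed in brightness. Wild type arrays had a median yeast spot intensity of 4120 ± 440 (SD, n = 3), against 1900 ± 114 (SD, n = 3) with ACC1 overexpression. This was a 2.17-fold difference, and the median control probe was 1.86-fold brighter in wild type. Quantile normalization of the log2 intensities removed this difference, and every level below is a normalized log2 intensity unless it is called unnormalized. Levels of different genes come from different probes and are not compared with each other. The ACC1 probe read 11.67, 11.76 and 11.87 in wild type and 14.00, 14.12 and 14.13 in ACC1 overexpression, so that the ACC1 overexpression arrays carried the higher ACC1 signal. Of the 60 readings of the 10 genes, 56 lay above the control probes' 95th percentile on their array, which served as the limit for a signal above background. The 4 below it were all of ERG26. No spot of the 10 genes was saturated.

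ERG11 was the only one of the 10 genes to pass the test between the groups. It encodes lanosterol demethylase, a heme-bearing cytochrome of the pathway and the target of azole antifungals. Its level was 11.94, 11.54 and 11.58 on wild type arrays 1, 2 and 3 and 12.63, 12.55 and 12.44 on ACC1 overexpression arrays 1, 2 and 3. The groups did not overlap: the lowest ACC1 overexpression array stood above the highest wild type array, wild type replicate 1. The log2 difference was 0.86 with a standard error of 0.10 and a 95% interval from 0.62 to 1.09, a 1.81-fold higher signal (adjusted p = 0.00407 in limma with Benjamini-Hochberg adjustment). In the same fit 3.47% of all 979 genes passed, and 2.66% passed as higher and 0.817% as lower. Groups did not overlap for 24.7% of all genes. Within the 3 array positions, each holding the same-numbered array of both groups, ERG11 was higher by 0.70, 1.01 and 0.86. Positions were read from the spots' row numbers, offset by 0, 62 and 124 for replicates 1, 2 and 3 in both groups. The groups may thus lie on separate slides, and group and slide could then not be told apart. Each value averages many cells, so more cells that carry the transcript and more of it per cell cannot be told apart.

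**Figure D1:**
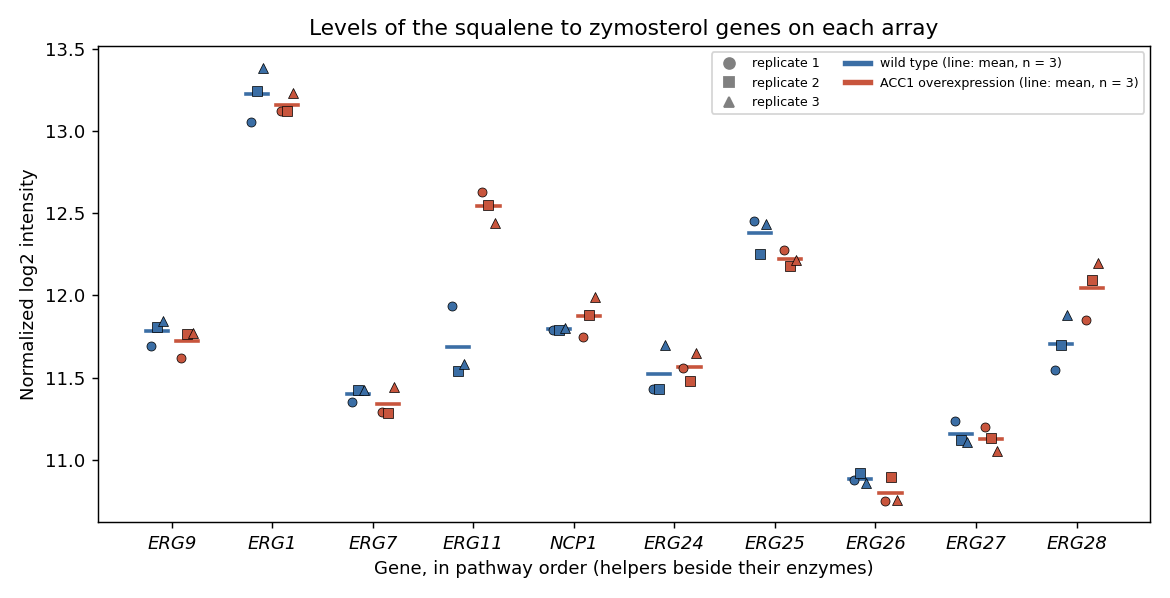
Normalized log2 intensity (y axis) of the 10 genes (x axis) on each of the 6 arrays, blue for wild type and red for ACC1 overexpression, with marker shapes for the replicate number and lines for the mean of 3 arrays. ERG11 is the only gene whose red and blue points do not overlap; heights of different genes come from different probes and cannot be compared.

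Before normalization the ERG11 spots moved far less than the arrays did. The mean unnormalized intensity of ERG11 was 5279, 4385 and 5034 on the wild type arrays and 4159, 3681 and 4060 on the ACC1 overexpression arrays, so that it was 1.24-fold brighter in wild type where the median spot was 2.17-fold brighter. Array brightness and group moved together and cannot be told apart. The same wild type over ACC1 overexpression ratio ran from 1.75 for ERG28 to 2.54 for ERG25 among the other 9 genes. The unnormalized ERG11 signal lay between 1.63 and 1.83 times the control limit on the wild type arrays and between 2.86 and 3.05 times on the others. The 2 ERG11 spots of an array differed by 9.61% of their mean at most. Where intensities were background corrected with normexp, the ERG11 difference was 1.29, or 1.33 with the control probes as negatives (adjusted p = 0.00343 and 0.00103 in limma, where 3.88% and 3.58% of all genes passed).

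Among 16 other ways of processing, ERG11 stayed between 0.78 and 1.33 and passed in 15. The exception was the fit without ACC1 overexpression replicate 2, where it stood at 0.86 (limma adjusted p = 0.0551). The spread of ERG11 within groups, a pooled SD of 0.17, was larger than that of 90.7% of the genes on the array.

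The enzymes that make lanosterol showed no difference past the threshold. ERG9, squalene synthase, which commits farnesyl units to sterols, read 11.70, 11.81 and 11.84 in wild type and 11.62, 11.77 and 11.77 in ACC1 overexpression. Its difference was −0.06 with a 95% interval from −0.22 to 0.09. ERG1, squalene epoxidase, the oxygen-using step and the target of terbinafine, read 13.05, 13.25 and 13.39 against 13.12, 13.12 and 13.23. The ERG1 difference was −0.07, with an interval from −0.26 to 0.12, and it moved from −0.17 without wild type replicate 1 to 0.02 without wild type replicate 3. ERG7, the lanosterol synthase that closes the rings, read 11.35, 11.42 and 11.43 against 11.29, 11.28 and 11.44, a difference of −0.06 with an interval from −0.21 to 0.08 (−0.14 after normexp). The groups overlapped for all 3 genes. Each interval leaves room for a change in either direction and ends well below the ERG11 difference.

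NCP1 encodes the NADP-cytochrome P450 reductase that hands electrons to the ERG11 enzyme, and the probe annotation describes the pair as coordinately regulated. Its level was 11.79, 11.79 and 11.80 on the wild type arrays and 11.75, 11.88 and 11.99 on the ACC1 overexpression arrays. Wild type values were nearly equal, and the ACC1 overexpression values fell on both sides of them. The difference was 0.08 with an interval from −0.08 to 0.23 (adjusted p = 0.564 in limma). ERG24, the reductase that acts on the product of the demethylase, read 11.43, 11.43 and 11.70 against 11.56, 11.48 and 11.65. Its groups overlapped, with a difference of 0.04 and an interval from −0.15 to 0.23. The ERG24 difference was 0.13 without wild type replicate 3 and 0.00 without either of the other wild type arrays.

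The enzymes of the next methyl removals, ERG25, ERG26 and ERG27, all had negative differences that did not pass. ERG25, the methyl sterol oxidase, read 12.45, 12.25 and 12.44 in wild type and 12.28, 12.18 and 12.21 in ACC1 overexpression. Wild type replicates 1 and 3 lay above all ACC1 overexpression arrays and replicate 2 lay among them. Its difference was −0.16, with an interval from −0.31 to 0.00 (adjusted p = 0.245 in limma). On wild type replicate 1 the 3 ERG25 spots ran from 5568.5 to 9453 before normalization, a range of 49.9% of their mean, where the median range over the 60 readings was 7.12%. Without that array the ERG25 difference was −0.12, and with the median over spots it was −0.20. ERG26, the sterol dehydrogenase, read 10.88, 10.92 and 10.86 against 10.75, 10.89 and 10.75, a difference of −0.09. It was above the control limit on 1 array of each group, and its sign turned when a common median replaced quantile normalization (0.06). After normexp it was −0.35, or −0.26 with control probes as negatives, and it passed in neither. ERG27, the ketoreductase that completes the removal, read 11.24, 11.12 and 11.11 against 11.20, 11.13 and 11.05. The ERG27 difference of −0.03 had an interval from −0.17 to 0.12, and it turned to 0.06 with a common median, where the median of all genes was 0.05.

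ERG28 encodes the endoplasmic reticulum protein that tethers the demethylation enzymes, ERG26 and ERG27 among them, to each other. It had the second largest difference of the 10 genes. Its level was 11.55, 11.70 and 11.88 on wild type arrays 1, 2 and 3 and 11.85, 12.09 and 12.20 on the ACC1 overexpression arrays. Wild type replicate 3 stood just above ACC1 overexpression replicate 1, so the groups overlapped. The difference was 0.34 with a standard error of 0.11 and an interval from 0.10 to 0.58. It was higher than that of 97.0% of all genes and did not pass over all genes tested (adjusted p = 0.127 in limma). ERG28 was among the 20.1% of all genes with an unadjusted p below 0.05. Within the 3 array positions ERG28 was higher by 0.31, 0.39 and 0.32. With the position, which is also the replicate number, as a block it passed (adjusted p = 0.00512 in limma, where 12.4% of all genes passed), and it did so with normexp added (adjusted p = 0.00762). Array weights gave a call too (0.34, adjusted p = 0.0174, where 18.0% of all genes passed). So did the fit that left out wild type replicate 3 (0.42, adjusted p = 0.0340, where 12.6% passed), which makes 4 of the 16 alternatives. Its difference was 0.55 after normexp (adjusted p = 0.116).

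**Figure D2:**
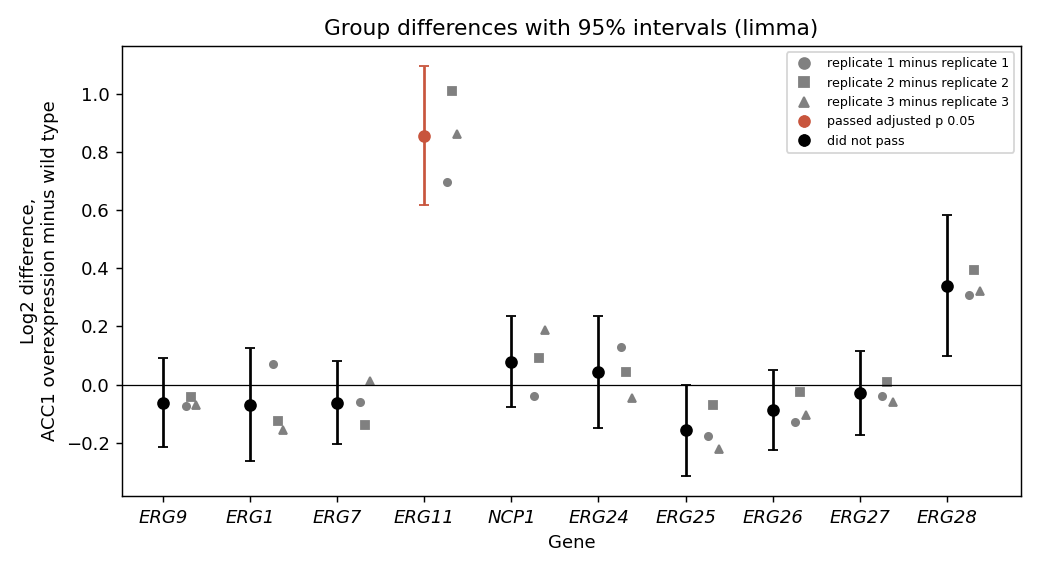
Log2 difference, ACC1 overexpression minus wild type (y axis), for each gene (x axis), with limma's 95% interval over 3 arrays per group and, in grey, the differences between same-numbered arrays. ERG11 at 0.86 alone passed; the interval of ERG28, at 0.34, lies above 0 but its adjusted p was 0.127.

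**Figure D3:**
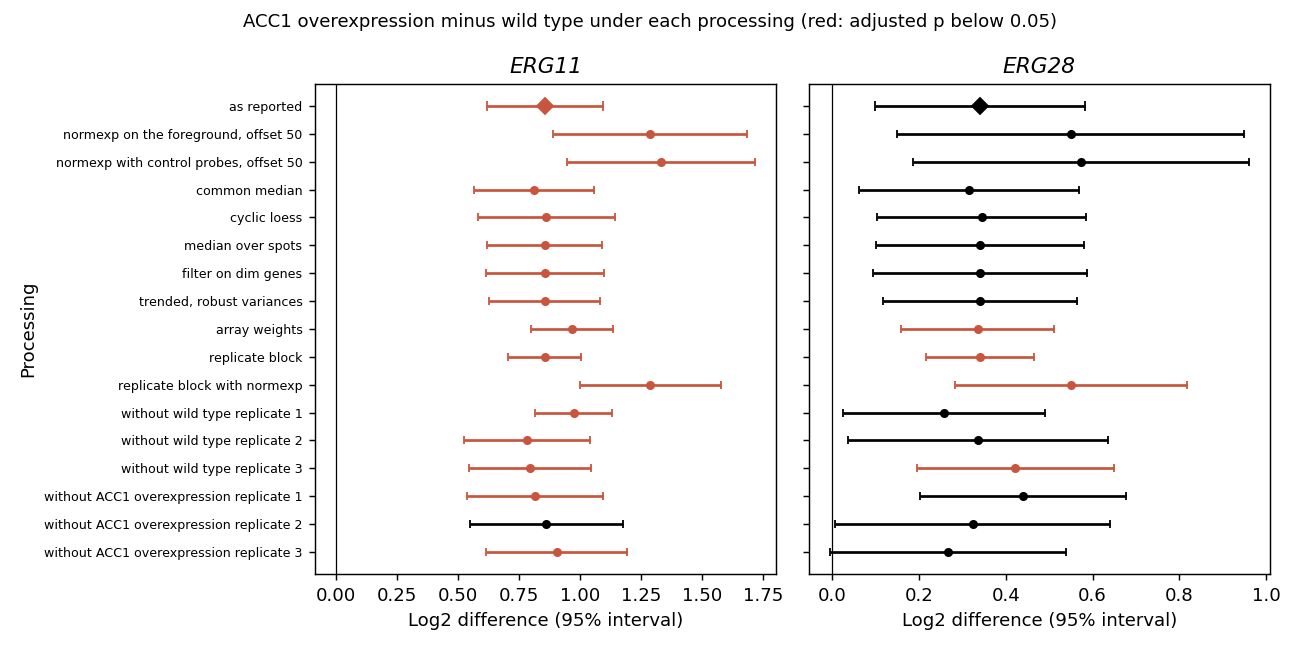
Log2 difference with its 95% interval (x axis) for ERG11 and ERG28 as reported (diamond) and under 16 alternatives (y axis), red where the adjusted p was below 0.05. ERG11 passed in 15 of them and ERG28 in 4, both fits with a replicate block included.

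Over the 10 genes, 1 passed as higher and 0 as lower, 2 lay below 0.05 before adjustment, and 4 differences were positive. The median difference was −0.05, beside −0.01 over all 979 genes, of which 26 passed as higher and 8 as lower. Without ERG11, the median absolute difference of the 9 genes was 0.07, beside 0.08 over all genes. The median within-group SD was 0.09 for the 10 genes and 0.08 for all genes. Without ERG11, the largest differences were those of ERG28 and ERG25.

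The ratio of ERG11 to each of the other 9 genes on the same array does not depend on how arrays are scaled to each other, though background light still enters it. The ratio of ERG11 to NCP1, from unnormalized intensities, was 0.16, −0.26 and −0.24 on the log2 scale in wild type and 0.85, 0.64 and 0.48 in ACC1 overexpression. All 3 ratios were higher in ACC1 overexpression than in any wild type array. The increase was 0.76, with an exact two-sided permutation p of 0.1, the smallest that 3 against 3 arrays allow. The ratio of ERG11 to ERG25 moved most, from −0.72 ± 0.17 to 0.32 ± 0.06 (SD, n = 3 each). In total 9 ratios were compared, and for 8 of them the groups did not overlap and the exact p was 0.1 (0.1125 after Benjamini-Hochberg adjustment). One of the 8 is the ratio to ERG26, which was below the control limit on 4 of the 6 arrays. The exception was ERG28: its ratio rose by 0.49, wild type replicate 1 lay above ACC1 overexpression replicate 3, and the exact p was 0.2. The 9 ratios share the ERG11 probe and are not independent of each other. They also come from the same arrays on which ERG11 had passed and the other 9 genes had not. The ratios therefore largely repeat the ERG11 difference, free of array scaling, and are not a separate test of it. Ratios of ERG11 to genes outside the set were not taken, so whether 8 of 9 is particular to this set was not tested. With 0.1 as the smallest exact p, no ratio could have passed the threshold. A difference in ratio shows unequal change, not which gene moved.

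**Figure D4:**
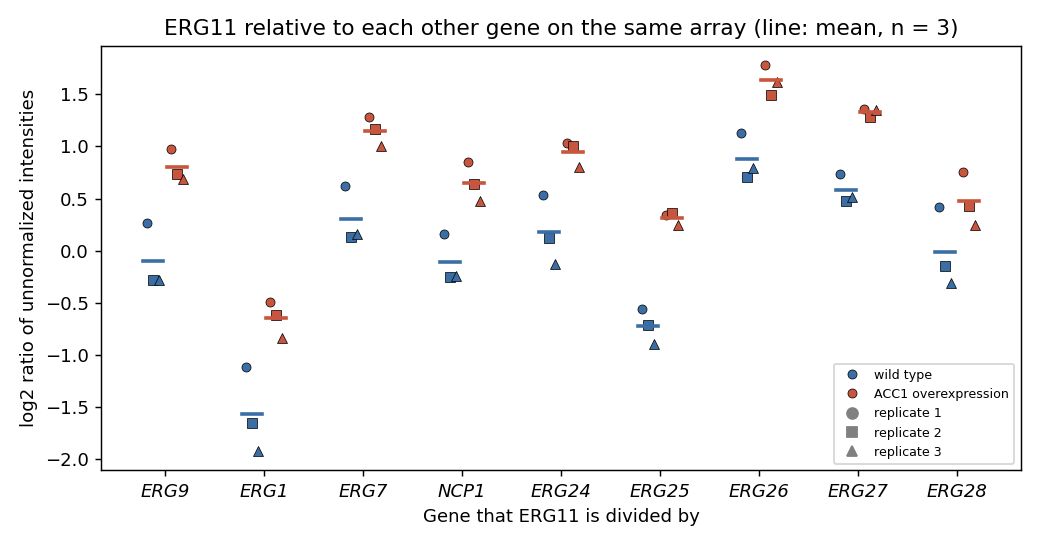
log2 ratio of the unnormalized ERG11 intensity to that of each other gene on the same array (y axis) by gene (x axis), blue for wild type and red for ACC1 overexpression, with lines for the mean of 3 arrays. The ratios are higher on all 3 ACC1 overexpression arrays for every gene except ERG28, whose groups overlap.

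The genes whose profile over the 6 arrays lay nearest to that of ERG11 were ADH2, GAP1, FAS1, HHT2 and HIS4. Nearness was the root mean square difference between profiles, each centred on its own mean. It was 0.16 for ADH2, the glucose-repressed alcohol dehydrogenase, 0.21 for GAP1, the general amino acid permease, 0.22 for FAS1, a fatty acid synthase subunit, 0.24 for the histone gene HHT2 and 0.25 for HIS4 of histidine synthesis. The median over the 969 genes outside the 10 was 0.46. The 10 genes were left out of this ranking, and none of the 5 belongs to the rest of sterol synthesis. Nearness by this measure needs a difference of like size. By absolute difference ERG11 ranked 2 among all genes, and ADH2, GAP1, FAS1, HHT2 and HIS4 ranked 4, 3, 5, 6 and 17. The 5 are thus mostly the next largest increases, and their nearness does not show shared regulation. With normexp or with a common median, 2 of these 5 were still among the 5 nearest.

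The rest of the sterol pathway and its surroundings were read through 7 lists with 52 genes, of which 44 were on the array. Among the genes that feed the pathway, from acetyl-CoA to farnesyl diphosphate, 0 of 9 passed, and 2 lay below 0.05 before adjustment, as 20.1% of all genes did. The largest difference there was that of ERG12, mevalonate kinase, at −0.17 (adjusted p = 0.209 in limma). HMG1, an HMG-CoA reductase gene named after its values were seen, stood nearly as far the other way, at 0.17 (adjusted p = 0.210). Of the 9 differences 6 were positive. Among the 5 late enzymes from zymosterol to ergosterol none passed and none lay below 0.05 before adjustment. ERG2, the sterol isomerase, was the largest at 0.15 (adjusted p = 0.389). Medians were 0.05 and 0.00. Neither end of the pathway thus held a gene past the threshold in this fit. With array weights ERG12, ERG2 and HMG1 passed, where 18.0% of all genes did. ERG2 also passed without wild type replicate 3, where 12.6% of all genes did.

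Of 8 transcriptional regulators, 2 rose and 0 fell, beside the 2.66% of all genes called higher and the 0.817% called lower. Groups did not overlap for these 2 and, in the lower direction, for 3 others, where 24.7% of all genes had groups without overlap in either direction. Before adjustment 3 of the 8 lay below 0.05, as did 20.1% of all genes. MOT3, a zinc finger repressor of hypoxic and ergosterol genes, read 11.61, 11.59 and 11.67 in wild type and 11.90, 11.87 and 11.96 in ACC1 overexpression. Its groups did not overlap, and the difference was 0.29 with a standard error of 0.06 (adjusted p = 0.0393 in limma). ROX1, the heme-induced repressor of hypoxic genes, read 11.05, 11.14 and 11.20 against 11.45, 11.37 and 11.41, again without overlap. The ROX1 difference was 0.28 with a standard error of 0.06 (adjusted p = 0.0413), and its signal was above the control limit on 2 of the 3 wild type arrays and on all 3 others. UPC2, ECM22, HAP1 and SUT1 were named after their values were seen. The sterol gene activator UPC2 was above the control limit on 1 wild type array and on 0 of 3 ACC1 overexpression arrays, so its values lie near background. Its groups did not overlap. It stood at −0.12 (adjusted p = 0.258), and at 0.04 with a common median, where the median of all genes was 0.05. After normexp it stood at −0.45 (adjusted p = 0.0918, or 0.0273 with the block, where 142 of the 979 genes passed). ECM22, its paralog, was above the control limit on 1 array of each group, so that its values lie near background too. ECM22 stood at 0.00 (adjusted p = 0.977) and at 0.14 with a common median. HAP1, the heme-responsive activator, stood at 0.00. SUT1, a regulator of sterol uptake, was above the control limit on 2 of 3 arrays in each group. It stood at −0.15 (adjusted p = 0.156), and at −0.04 with a common median (adjusted p = 0.653). SUT1 passed with array weights (adjusted p = 0.0217), where 18.0% of all genes did. With the block and normexp it passed too (−0.46, adjusted p = 0.0271), where 142 of the 979 genes did. Over the list the median difference was −0.01.

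Heme synthesis had 1 of 8 genes past the threshold, and it was lower, as 0.817% of all genes were. HEM1, which encodes the first enzyme of heme synthesis, read 12.04, 12.02 and 12.09 in wild type and 11.76, 11.74 and 11.83 in ACC1 overexpression. The groups did not overlap, and HEM1 fell by 0.27 on the log2 scale (standard error 0.06, adjusted p = 0.0413 in limma). HEM2, the next enzyme, named after its values were seen, also had groups without overlap, but its −0.25 did not pass (adjusted p = 0.0924). Groups did not overlap for 2 of the 8 genes, both lower, where 24.7% of all genes had groups without overlap in either direction. Of the 8 differences 3 were positive, the largest that of HEM13 at 0.06. HEM2 passed with array weights (−0.32, adjusted p = 0.00434), where 18.0% of all genes did. With the block it passed too (adjusted p = 0.0216), where 12.4% did. The fit without wild type replicate 1 also gave a call (−0.32, adjusted p = 0.0399), where 32 of the 979 genes passed. HEM2 stood at −0.19 with a common median (adjusted p = 0.223) and at −0.28 after normexp (adjusted p = 0.226). The list median was −0.05. Within the array positions MOT3 was higher by 0.29, 0.28 and 0.29, ROX1 by 0.39, 0.24 and 0.21, and HEM1 stood at −0.27, −0.28 and −0.26. All 3 genes missed the threshold when wild type replicate 2 or any ACC1 overexpression array was left out, with differences of like size, and ROX1 also missed without wild type replicate 1 (0.23, adjusted p = 0.0738). Of the 16 alternatives, MOT3 passed in 11, ROX1 in 11 and HEM1 in 9. After normexp, HEM1 stood at −0.43 (adjusted p = 0.0918), MOT3 at 0.49 (adjusted p = 0.0568) and ROX1 at 0.66 (adjusted p = 0.0293).

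The remaining lists held no gene past the threshold. Of 3 electron and heme partners of the sterol enzymes, DAP1, the heme-binding protein that supports the ERG11 enzyme, was the largest at −0.05 with an interval from −0.24 to 0.14, and the list median was −0.05. Among 10 genes of steryl esters, sterol uptake and transport, the median was 0.00. NCR1, a vacuolar sterol transporter, was the largest there at 0.18 (adjusted p = 0.261). It passed with array weights and without wild type replicate 3, where 18.0% and 12.6% of all genes did. SNQ2 was the only drug efflux gene measured of 5 and stood at 0.05. Over all 44 genes of the 7 lists, 2 passed as higher and 1 as lower, with a median of 0.00, beside the 3.47% called among all genes.

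**Figure D5:**
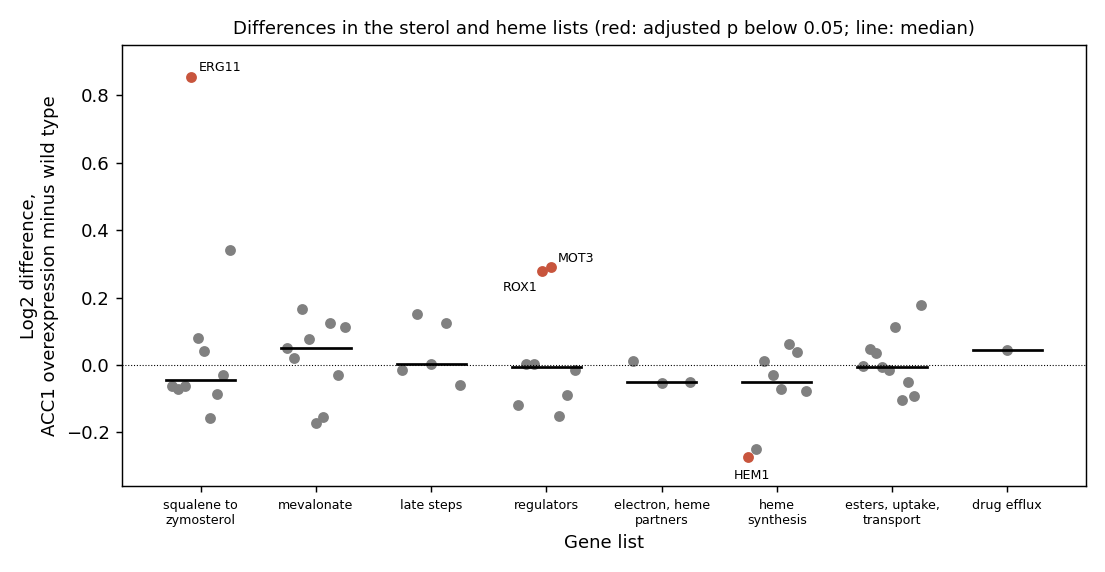
Log2 difference, ACC1 overexpression minus wild type (y axis), of each measured gene in the 10-gene set and the 7 other lists (x axis), red where the adjusted p was below 0.05, with lines for list medians. ERG11, MOT3 and ROX1 passed as higher and HEM1 as lower; list medians lie between −0.05 and 0.05.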

How the data were processed

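Gene expression was measured on 6 single-colour arrays, grouped by the sample titles. The deposited tables hold the authors' scanner output, a median foreground intensity per spot and no background column, per the file headers. The sources used here do not name the software or say if background had been subtracted; if not, folds are too small. The authors' deposited value table holds a score per row with unstated scale and centring; its rows were given no names and served for 1 count. Intensities were taken to log2, quantile normalized over the yeast spots without the 26 control probes, and averaged per probe. All 979 genes had a match in the R64 gene table, which gave names and lengths. Groups were compared with limma 3.58.1 in R 4.3.3 (two-sided, Benjamini-Hochberg over all 979 genes, threshold 0.05). The fit was tested on simulated data. Precision is limited by having 3 arrays a group. Alternatives covered background, normalization, spots, dim genes, variances, weights, the replicate number and left-out arrays. The members and lists were chosen with earlier results of these data known. Named were the 10 genes, ACC1, the 5 nearest to ERG11, and in each list the called genes and the largest difference. UPC2, ECM22, HAP1, SUT1, HEM2 and HMG1 were added after their values were seen. A planned search of promoters was not run because no promoter sequence was used here.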

Additional observations from a re-analysis of the deposited data

How the results depend on the processing

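With arrays left out singly, the ACC1 difference lay between 2.25 and 2.36 and that of ERG11 between 0.78 and 0.97. ACC1 passed under all 16 alternatives, the replicate block included, and ERG11 missed the threshold in 1 of the 16. Of 143 values for the other 9 genes of the set, 139 kept their side of the threshold and 4 gained a call, all of ERG28. The number of the 10 genes past the threshold, 1, was 2 with array weights, and 0 to 2 with arrays left out singly. Over all genes the count of 34 was 74 after scaling to a common median, 5 at the stricter threshold of 0.01 and 176 with array weights. Leaving out arrays gave 4 to 123 (5 without wild type replicate 2, 123 without wild type replicate 3, and 5, 4 and 7 without ACC1 overexpression replicates 1, 2 and 3). The deposited value table gave 32. The 3 calls in the other lists became 1 after normexp and 9 with array weights, and 0 to 5 without 1 array (0 without wild type replicate 2 or any ACC1 overexpression array, 5 without wild type replicate 3). The median over the 10 genes lay between −0.05 and −0.01 with arrays left out singly, and was 0.04 with a common median and −0.08 after normexp. Over all genes the median was 0.05 with a common median and −0.02 after normexp. Of the genes nearest to ERG11, 3 to 5 of 5 stayed among the nearest with arrays left out singly. The cause of these shifts was not tested.

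With the replicate number as a block, 121 genes passed (12.4%), 2 of the 10 (ERG11 and ERG28, at an adjusted p of 3.04e-05 and 0.00512 in limma) and 4 of the other lists. With the block and normexp together these counts were 142, 2 and 5. The deviations of same-numbered arrays from their group means correlated with r of 0.467, −0.021 and 0.385. For wild type replicate 1 with ACC1 overexpression replicate 3, r was −0.367, and for wild type replicate 3 with ACC1 overexpression replicate 1 it was −0.498. Within a group a gene's 3 deviations cancel out, so these r values are tied to each other and do not count separately. By them, numbers 1 and 3 shared part of their deviations across the groups. The main fit, which has no block, leaves that part in its error. Its cause was not tested. Wild type replicate 1 and 3 correlated best with their own number, wild type replicate 2 did not. Signal over background limits ERG26, below the control limit on 4 of 6 arrays.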
